A study of Mus musculus with 2 samples.

Results

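The MHC class I and immunoproteasome genes are the genes through which a cell cuts its own proteins into peptides and displays them at its surface to CD8+ T cells. They were taken from a list of gene names: H2-K1, H2-D1, B2m, Tap1, Tap2, Tapbp, Psmb8, Psmb9, Psmb10 and Nlrc5. All 10 were found among the 20002 genes measured in whole mouse kidney. RNA sequencing of poly(A) RNA compared 1 library from control mice with 1 library from Reg-2 CKO mice, in which Regnase-2, an RNA-binding endonuclease encoded by Zc3h12b, was the target. The question was which kidney transcripts differ when Regnase-2 is reduced. With 1 library a group, no difference has a replicate check, and no test between the groups was made. Library totals were 38851231 control and 43588721 CKO reads.

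Both groups were C57BL/6J mice without further treatment. CKO mice received adeno-associated virus serotype 9 (AAV9) with a short hairpin RNA (shRNA) against Regnase-2 through the tail vein at 11 weeks of age. Controls received AAV9 described as an empty vector in one passage of the methods and as a control shRNA in another. Kidneys were taken at 14 weeks of age according to the RNA sequencing methods, and at 16 weeks, 5 weeks after injection, according to the AAV9 methods. The labels speak of a conditional knockout restricted to proximal tubules, whereas the methods describe a knockdown with a virus that prefers these tubules, and the whole organ was sequenced. RNA came from left kidney according to the methods, and whether a library came from 1 mouse or from a pool was not given in the sources used here. Zc3h12b had 47 control and 59 CKO reads, a log2 ratio of -0.25 after scaling that became 0.16 with equal totals and 0.42 in the values as deposited. Its 95% Clopper-Pearson interval for counting error ran from -0.83 to 0.33, so its mRNA is no check of the labels. The 14 markers of proximal tubule, the main tissue of the renal cortex, summed to 643787 and 537762 reads, and Slc34a1, a phosphate transporter, was the most abundant of them.

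Class I molecules consist of a polymorphic heavy chain, here H2-K1 or H2-D1, bound to beta-2-microglobulin. Their peptides are cut in the cytosol by the proteasome, pumped into the endoplasmic reticulum by the transporter TAP and loaded with the help of tapasin. Interferon-gamma induces the immunoproteasome subunits, which take the place of catalytic subunits of the standard proteasome, and in the kidney class I is known on endothelium, leukocytes and, after injury or rejection, on tubular epithelium.

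The promoters of B2m, H2-K1 and H2-D1 are shown because each holds the same short motifs, though not in the same order in B2m. B2m and H2-K1 were at least 2-fold higher in the CKO library and H2-D1 was not. RefSeq promoter windows of GRCm38.p6, from 250 bases before to 50 after the start of transcription, matched 8 of the 10 genes, and Tap2 and Nlrc5 had no entry. Each window was searched on both strands for 4 motifs that were picked with the sequences in view. These were the core of the interferon regulatory factor (IRF) element, AANNGAAA, in 23.9% of 32544 windows, a kappaB motif, GGGNNTTCC or GGNNTTTCC, in 9.86%, the X2 core TGACG in 20.9% and the Y box ATTGG in 37.4%. The last pair are parts of the SXY module on which NLRC5 and RFX act. TGACG followed by ATTGG on 1 strand with 15 to 25 bases between them occurred in 0.439% of windows, and with exactly 20 bases in 0.0953%. H2-K1, H2-D1 and B2m each held the IRF core, the kappaB motif and TGACG and ATTGG with 20 bases between them. Of the 32544 windows, 8 held all 3, counting any gap of 15 to 25 bases. Windows of H2-K1, H2-D1 and B2m are among these 8. The motifs were picked with them in view, so the 8 is no measure of how rare the set is. None of the windows of Tap1, Tapbp, Psmb8, Psmb9 and Psmb10 held the IRF core, the kappaB motif or that pair, which says only that these letters are not in those windows. The B2m stretch below runs from 142 to 44 bases before the start, chr2:122147545-122147643 on the plus strand, and overlaps no exon of GENCODE M21. For H2-K1 and H2-D1 the 30 bases from TGACG to ATTGG are given, chr17:34000359-34000388 on the minus strand and chr17:35262993-35263022 on the plus strand. The H2-K1 windows start inside the RefSeq bounds of the gene, which reach 34000619, and the H2-D1 run lies inside an exon of a GENCODE transcript. All are written 5′ to 3′ on the strand of the gene, and capitals mark TGACG and ATTGG and, in B2m, also the IRF core and the kappaB motif.
B2m: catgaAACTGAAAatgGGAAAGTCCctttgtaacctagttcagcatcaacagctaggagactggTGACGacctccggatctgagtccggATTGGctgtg
H2-K1: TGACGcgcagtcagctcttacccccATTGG
H2-D1: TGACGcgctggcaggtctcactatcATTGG

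In H2-K1 and H2-D1 the order was kappaB, IRF core, TGACG and ATTGG, and over the 110 bases around these motifs both genes had the same base at 99 positions, or 90%. In B2m the IRF core came before the kappaB motif, and the motifs did not overlap. A match is a description of letters and not of a bound site.

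Of the 10 genes, 8 were at least 2-fold higher in the CKO library and 0 at least 2-fold lower. Of the 17469 genes tested, those reaching 10 scaled reads in at least 1 library, 2334 or 13.4% were at least 2-fold higher and 934 or 5.35% at least 2-fold lower. All 10 genes passed that filter in both libraries. A gene below 10 reads in control passed only through CKO and could only come out higher, and the reverse held for low CKO values. Reads here are the deposited values minus a constant per library, and CKO reads were scaled by 0.667, the median ratio of control to CKO reads. The median log2 ratio of the 10, with a pseudocount of 1, was 1.44, against 0.022 for all genes tested, whose quartiles were -0.33 and 0.48. The genes below 2-fold were H2-D1 and Tapbp. Together the 10 genes made up 0.0465% of the control reads and 0.144% of the CKO reads. The scaling moved the background as well: with equal totals of the libraries the median of all genes tested was 0.44, and 3870 genes were at least 2-fold higher and 437 lower. With the values as deposited and unscaled, that median was 0.59, with 3574 genes higher and 131 lower. Under both of these, all 10 genes were at least 2-fold higher.

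**Figure D1:**
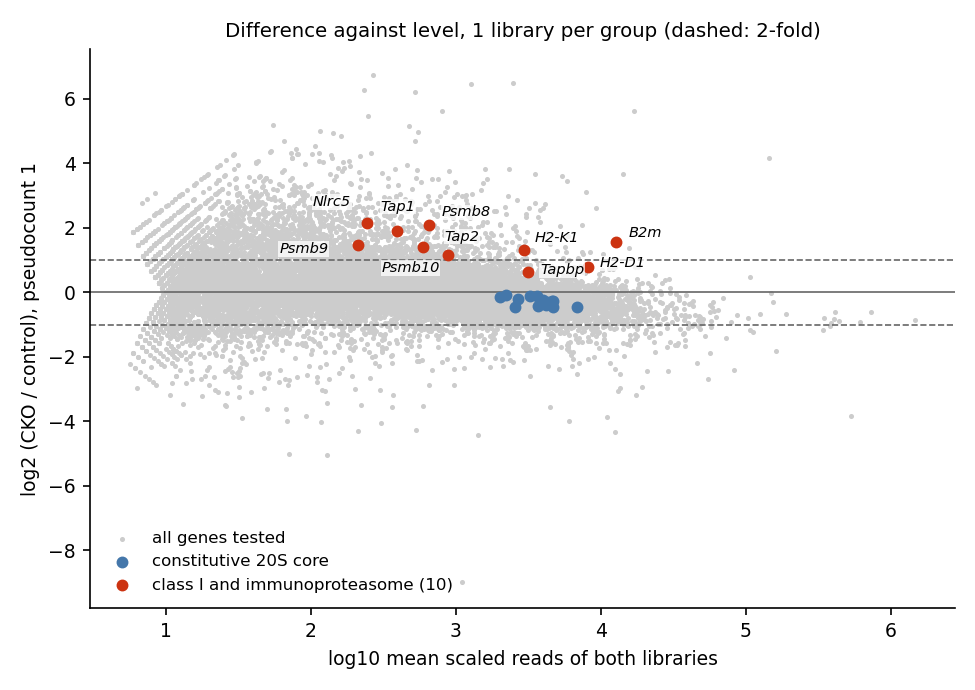
Log2 ratio of CKO to control (vertical) against log10 of the mean scaled reads of both libraries (horizontal) for each of the 17469 genes tested, with 1 library per group. The 10 class I and immunoproteasome genes (red) lie between 0.62 and 2.16, and the 14 subunits of the constitutive 20S core (blue) lie below 0 with the scaling used, while their median is 0.31 in the values as deposited. The dashed lines mark 2-fold.

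B2m encodes beta-2-microglobulin, the light chain shared by all class I molecules. It had 6418 control and 28598 CKO reads. Scaled, it was 2.97-fold higher, and the 95% Clopper-Pearson interval ran from 2.89 to 3.05. This interval and those that follow cover counting error only. B2m (Entrez gene 12010) lies on chromosome 2 from 122147687 to 122153082 in GRCm38.p6, apart from the MHC.

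H2-K1 (14972), at chromosome 17 from 33996012 to 34000619, and H2-D1 (14964), from 35263094 to 35267497, encode the classical heavy chains, which hold the peptide. H2-K1 had 1699 control and 6341 CKO reads and was 2.49-fold higher, with an interval from 2.36 to 2.63. H2-D1 had 5978 and 15299 reads and was 1.71-fold higher, with an interval from 1.66 to 1.76. The heavy chains thus differed from each other and from B2m by more than counting error. Per kb of transcript, H2-D1 was at 2.71 times the level of H2-K1 in the control library and at 1.86 times in the CKO library. B2m per kb was 1.92 times the sum of the 2 heavy chains in control and 2.97 times in CKO. Levels per kb used the longest GENCODE transcript, which for H2-D1 starts upstream of its RefSeq start.

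Of 18 further heavy chain genes of the H2-Q, H2-T, H2-M and related groups, 12 were measured and 11 passed the filter; 8 of these were at least 2-fold higher and 0 lower, with a median log2 ratio of 1.27. H2-Bl was the highest at 3.25, from 5 and 84 reads, with an interval from 2.21 to 5.15 on the log2 scale, and was at 1.19 with the constant kept and the values scaled by the median ratio. H2-T22 was the lowest at 0.41, and H2-T23, a Qa-1 molecule that presents peptides of other class I leader sequences, had the most reads, 1643 and 3794. Class I genes resemble each other, and reads from identical stretches are uncertain. Of all windows of 100 bases, the read length, in the longest transcript, 4.64% were shared with another gene for H2-D1, 14.2% for H2-T22 and 7.28% for H2-T23, while H2-K1 and B2m shared 0%. Among the 8 further heavy chains past 2-fold, the share was 16.4% for H2-Q7, 13.1% for H2-Q1 and 10.8% for H2-Q6.

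TAP, the transporter associated with antigen processing, is a heterodimer. Tap1 (21354) lies on chromosome 17 from 34187556 to 34197225 and Tap2 (21355) from 34204479 to 34216321. Tap1 had 167 control and 930 CKO reads, 3.71-fold higher with an interval from 3.15 to 4.40. Tap2 had 553 and 1844 reads and was 2.22-fold higher, from 2.02 to 2.45. Tap1 was thus further from the control than its partner, and the ratio of Tap1 to Tap2 per kb was 0.352 in control and 0.588 in CKO. Tapbp (21356), on chromosome 17 from 33919478 to 33929290, encodes tapasin, which bridges TAP and the empty class I molecule. It had 2464 and 5693 reads and was 1.54-fold higher, from 1.47 to 1.62, the smallest difference of the 10 genes under each scaling tried.

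Of the 14 genes fixed for the rest of peptide loading and trimming, 0 were at least 2-fold higher and 0 lower with the scaling used, and 2, Tapbpl and Erap1, were higher with equal totals or in the values as deposited. Their median log2 ratio was -0.06, or 0.36 with equal totals and 0.53 in the values as deposited. Tapbpl, a relative of tapasin that edits peptides, was the highest at 0.81, or 1.22 with equal totals. Calr, the chaperone calreticulin, had the most reads, 23053 and 28646, and a log2 ratio of -0.27 that became 0.15 with equal totals. Blmh, the cytosolic bleomycin hydrolase, was the lowest at -0.56 and was at 0.03 with the values as deposited.

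**Figure D2:**
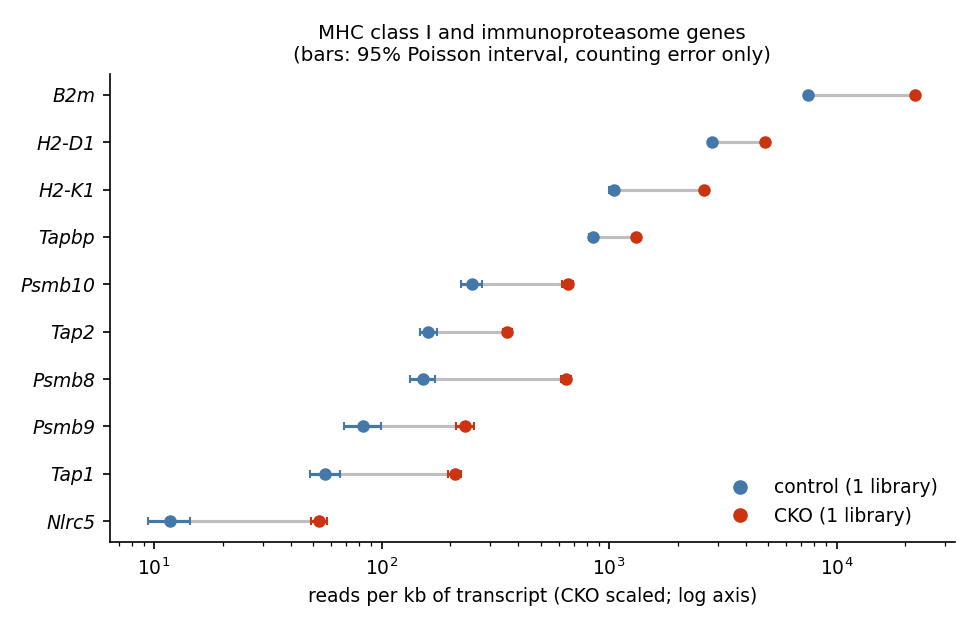
Reads per kb of the longest transcript (log axis) for each of the 10 genes in the control library (blue) and the CKO library after scaling (red), with 95% Poisson intervals for counting error. The genes span from 11.7 for Nlrc5 to 7463 for B2m in the control library, and each gene is higher in the CKO library.

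The levels in the control library, as reads per kb, followed the order B2m, H2-D1, H2-K1, Tapbp, Psmb10, Tap2, Psmb8, Psmb9, Tap1 and Nlrc5. Tap2 at 161 and Psmb8 at 152 were the only neighbours whose Poisson intervals overlapped. In the CKO library Psmb8, at 649 scaled reads per kb, stood above Tap2 at 357 and within the interval of Psmb10 at 659, and the intervals of Psmb9 at 232 and Tap1 at 210 overlapped too.

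Psmb8 (16913), Psmb9 (16912) and Psmb10 (19171) encode the catalytic subunits of the immunoproteasome, LMP7, LMP2 and MECL-1. Psmb8 lies on chromosome 17 from 34198195 to 34201454, between Tap1 and Tap2. Psmb9, from 34182030 to 34187330, is read away from Tap1, with 225 bases between the starts of both genes. Psmb10 lies on chromosome 8 from 105935728 to 105938392. Psmb8 had 247 control and 1586 CKO reads and was 4.28-fold higher, from 3.74 to 4.91. Psmb9 had 112 and 471 reads, 2.80-fold higher with an interval from 2.28 to 3.48. Psmb10 had 326 and 1295 reads, 2.65-fold higher with an interval from 2.34 to 3.0. All 3 subunits were higher, Psmb8 beyond the intervals of the others.

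The standard subunits that they replace did not share this. Psmb5, the counterpart of Psmb8, had 2963 control and 3218 CKO reads, a log2 ratio of -0.47. Psmb6, the counterpart of Psmb9, had 5426 and 5895 reads and Psmb7, the counterpart of Psmb10, had 4779 and 5458, with log2 ratios of -0.47 and -0.39. The sign of these 3 ratios depended on the scaling, since with the values as deposited they were 0.12, 0.12 and 0.19. Psmb5 shared 24.9% of its windows with another gene, mostly the predicted gene Gm3375, so its reads are uncertain.

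Ratios within a library do not depend on the scaling between libraries. Psmb8 to Psmb5 was 0.0834 in the control library and 0.493 in the CKO library, a ratio 5.91-fold higher with an interval from 5.12 to 6.82 for counting error. Psmb9 to Psmb6 was 0.0206 and 0.0799, 3.87-fold higher, from 3.14 to 4.77. Psmb10 to Psmb7 was 0.0682 and 0.237, 3.48-fold higher, from 3.06 to 3.95. Standard subunits had more reads than their counterparts in both libraries. Per kb, the immunoproteasome share of each pair was 4.40% and 21.4% for Psmb8, 1.20% and 4.50% for Psmb9 and 5.69% and 17.4% for Psmb10.

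**Figure D3:**
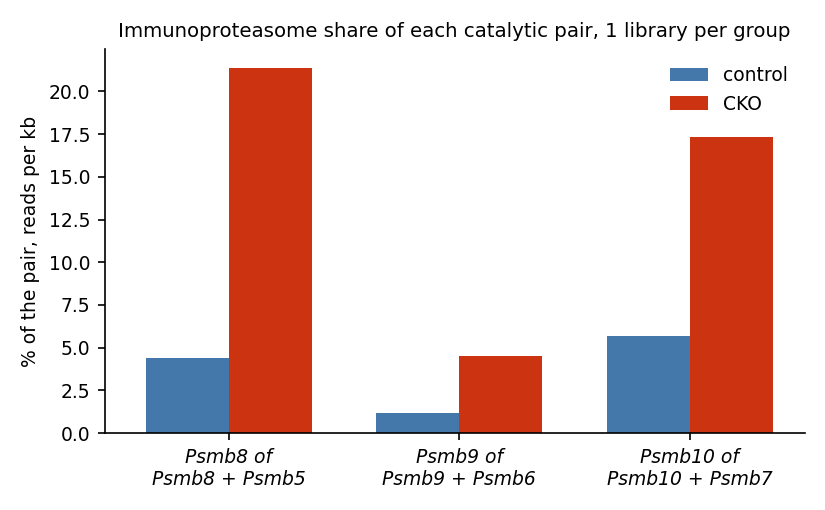
Share of each catalytic pair, in reads per kb, that came from the immunoproteasome subunit in the control library (blue) and the CKO library (red), 1 library per group and no error bars. The share is higher in the CKO library for each pair, most for Psmb8, at 4.40% and 21.4%.

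The rest of the proteasome was read from lists of its parts. Of the 14 constitutive subunits of the 20S core, which include Psmb5, Psmb6 and Psmb7, 0 were at least 2-fold higher or lower, and the median log2 ratio was -0.27, or 0.15 with equal totals and 0.31 in the values as deposited. Psma5 was the highest at -0.07 and Psmb5 the lowest, and Psma4 had the most reads, 7842 and 8633. Of the 18 subunits of the 19S regulatory particle, which unfolds ubiquitin-tagged proteins, 0 were past 2-fold, with a median of -0.35, or 0.07 with equal totals and 0.24 in the values as deposited. They ran from -0.68 for the ubiquitin receptor Adrm1 to -0.01 for Psmd8, and Psmd2 had the most reads, 7491 and 8828. Of the 9 assembly factors and activators 0 were past 2-fold, with a median of -0.17 that became 0.25 with equal totals, while in the values as deposited Psme1 and Psme2, 2 of the 9, were at least 2-fold higher. Psme2, a subunit of the interferon-inducible activator PA28, was the highest at 0.51, and Psme4, the activator PA200, was the lowest at -0.40, or 0.02 with equal totals, and had the most reads, 5360 and 6085.

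Nlrc5 (434341), on chromosome 8 from 94434335 to 94527272, encodes the transactivator of class I genes. It had 89 control and 602 CKO reads, and was 4.51-fold higher with an interval from 3.60 to 5.70. Its log2 ratio of 2.16 was the highest of the 10 genes, although its interval overlapped those of Psmb8 and Tap1, and with the values as deposited it stood below Psmb8. Nlrc5 was also the gene with the lowest level per kb in both libraries. Gene bodies of Nlrc5, Tapbp and B2m overlap other annotated genes, and the strand setting of the counting was not given in the sources used here, so reads of overlapping genes may be mixed.

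Of 19 transcriptional regulators of class I and related genes, 7 were at least 2-fold higher and 0 lower, with a median log2 ratio of 0.38. Among them were Irf7 at 2.94, Ciita at 2.38, Irf1 at 1.70, Irf9 at 1.48, Irf8 at 1.43 and Stat2 at 1.31. Irf1, which binds interferon-stimulated response elements, had 465 and 2263 reads. Ciita, the transactivator of MHC class II genes and a relative of Nlrc5, had 120 and 945. Stat3 had the most reads, 4579 and 9106, and was at 0.41. Rfxank, a subunit of the RFX complex that docks Nlrc5 and Ciita at the X box, was the lowest at -0.25, and at 0.17 with equal totals.

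Interferon receptors and signalling genes numbered 13 past the filter, of which 4 were at least 2-fold higher and 0 lower, with a median of 0.43. Socs3, a feedback inhibitor of cytokine receptors, was the highest at 3.54, from 84 and 1479 reads. Jak1, the kinase bound to both interferon receptors, had the most reads, 5692 and 8536, and was the lowest at 0.00, or 0.42 with equal totals. The interferon genes Ifng and Ifnb1 were not analysed here. Of 30 interferon-responsive genes outside antigen presentation, 28 were at least 2-fold higher and 0 lower, with a median of 2.17. Irgm1, an immunity-related GTPase, had the most reads of these, 1236 and 5458, and a log2 ratio of 1.56.

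**Figure D4:**
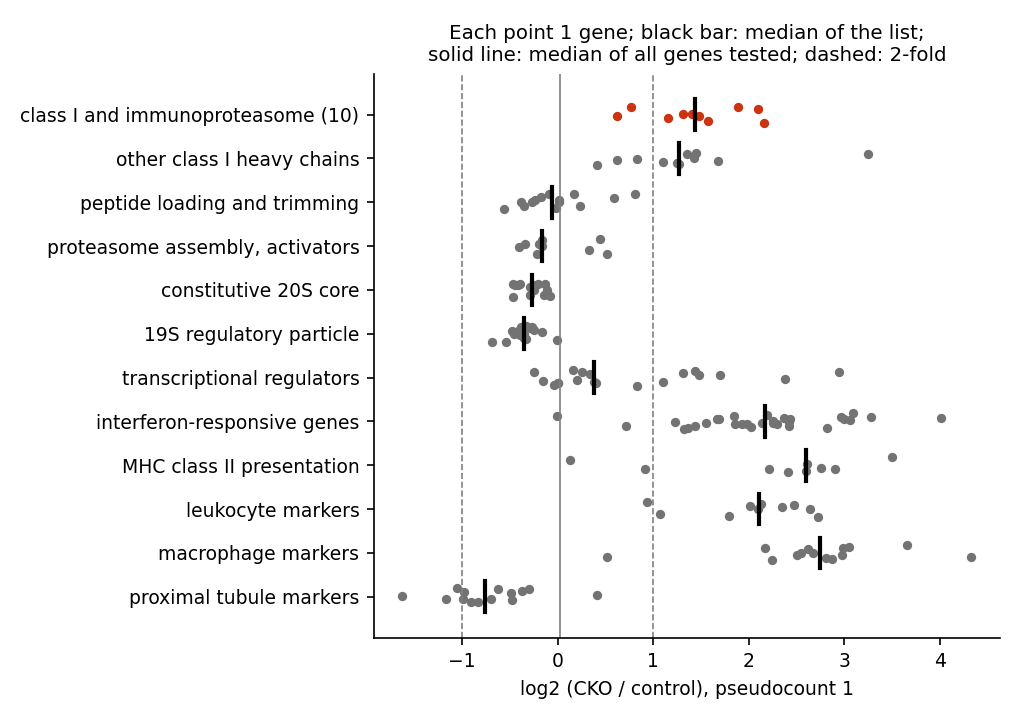
Log2 ratio of CKO to control for each gene of the lists (points) and the median of each list (black bars), with the median of all genes tested (solid line) and 2-fold (dashed). The 10 class I and immunoproteasome genes have a median of 1.44, the macrophage markers 2.74, and the constitutive 20S core -0.27, which is 0.15 with equal totals.

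Markers of several cell types were also higher in the CKO library, while those of other cell types were not. In whole-kidney RNA, a change in the number of cells of a type and a change in RNA per cell cannot be told apart. Of 10 general leukocyte markers, 9 were at least 2-fold higher and 0 lower, with a median log2 ratio of 2.11, and the list summed to 2189 control and 10689 CKO reads. Lcp1, an actin-bundling protein, was the most abundant of them, at 786 and 2249 reads and the lowest log2 ratio, 0.93, while the tetraspanin Cd53 was the highest at 2.73. Of 14 macrophage markers, 13 were at least 2-fold higher, with a median of 2.74 and sums of 4378 and 31636 reads. Lyz2, lysozyme, had the most reads over both libraries, 518 and 9836, although Csf1r led in the control with 2244, Ms4a7 the highest at 4.33, or 2.10 with the constant kept and the values scaled by the median ratio, and Csf1r the lowest at 0.51. No marker of either list was at 3 or fewer reads in any library. Their part in the result for the class I and immunoproteasome genes was not tested.

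Lymphocyte markers had few reads. Of 10 T cell markers 8 were at least 2-fold higher, with a median of 1.80 and sums of 235 and 876 reads. With the constant kept and the values scaled by the median ratio, 3 of the 10 were, and the median was 0.68. Cd3e, Cd8a and Cd5, with 6, 8 and 3 control reads, passed the filter only through the CKO library. Their direction was thus fixed in advance. Thy1 had the most reads over both libraries, 28 and 206, although Trac led in the control with 99. Cd5, the highest, had 3 control and 38 CKO reads, a log2 ratio of 2.72 with an interval from 1.42 to 5.42 that became 0.66 under that alternative. Trac, the constant region of the T cell receptor alpha chain, was the lowest at -0.44, and at 0.26 with the values as deposited; Cd3d was not analysed here. Of 7 B cell markers 2 were analysed here, Ighm with 110 and 530 reads and a log2 ratio of 1.67, and Cd79b at 0.21. Natural killer and cytotoxic cell markers summed to 55 and 97 reads over 5 genes; of the 4 past the filter, 2 were at least 2-fold higher, from -0.88 for Gzma, or 0.29 with the values as deposited, to 1.09 for Nkg7, and Prf1 had the most reads over both libraries, 10 and 33, although Gzma led in the control with 18. Nkg7, with 7 control reads, also passed the filter only through the CKO library. In the values as deposited, scaled or not, and with a pseudocount of 10, 0 of the 4 markers past the filter were at least 2-fold higher. Their part was not tested either.

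Of 7 dendritic cell markers 6 were at least 2-fold higher, with a median of 1.56 and sums of 469 and 1541 reads. With the constant kept and the values scaled by the median ratio, 2 of the 7 were, and the median was 0.87. Itgax, the integrin CD11c, was the highest at 2.57, and Zbtb46 was the lowest at 0.35 and the most abundant at 345 and 660 reads. The 3 neutrophil markers analysed here summed to 42 and 260 reads, and 2 were at least 2-fold higher; Csf3r was the most abundant and highest at 2.37, and S100a8 the lowest at 0.77. Their median was 1.64, and 0.69 under the same alternative, with 1 of the 3 past 2-fold. Fibroblast and pericyte markers were at least 2-fold higher in 6 of 8, with a median of 1.69 and sums of 8538 and 38053 reads. Col1a1 was the highest at 2.65, Pdgfrb the lowest at 0.48, and Col3a1 had the most reads over both libraries, 1107 and 9779, although Rgs5 led in the control with 1564.

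Endothelial markers, of cells known to carry class I at rest, were past 2-fold in 0 of 9, with a median of -0.10 that became 0.32 with equal totals, and sums of 18572 and 25469 reads. Plvap was the most abundant at 3854 and 5411 reads, Emcn the highest at 0.14 and Kdr the lowest at -0.67. Of the 14 proximal tubule markers 3 were at least 2-fold lower and 0 higher, with a median of -0.76, from -1.62 for Slc22a6, an organic anion transporter, to 0.41 for Slc5a12. With equal totals that median was -0.35 and with the values as deposited -0.18, and under both 1 of the 14, Slc22a6, was at least 2-fold lower. With CKO scaled so that expressed genes had a median log2 ratio of about 0, 5 were. Markers of other nephron segments were past 2-fold in 0 of 14, with a median of -0.02, or 0.40 with equal totals, and sums of 160686 and 292070 reads. Umod was the most abundant at 90047 and 187056 reads, and Aqp2 was the highest at 0.79. With equal totals 2 of the 14 were at least 2-fold higher, Aqp2 at 1.21 among them, and in the values as deposited 4 were. Their part in the class I result was not tested.

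MHC class II presentation, which is largely confined to professional antigen-presenting cells, was read beside class I. Of 9 class II genes 7 were at least 2-fold higher and 0 lower, with a median log2 ratio of 2.60. Cd74, the invariant chain, had the most reads, 2610 and 23956, and a log2 ratio of 2.61. Among these 9 listed genes, Ctss, the protease that trims the invariant chain, was the highest at 3.50. Ifi30, a thiol reductase of the same pathway, was the lowest at 0.13. Reads of Cd74 relative to those of B2m were 0.407 in the control library and 0.838 in the CKO library, and those of Ptprc, the pan-leukocyte gene CD45, relative to B2m were 0.0326 and 0.0480.

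Position on chromosome 17 was compared as a feature that the choice of genes did not use. Tapbp, H2-K1, Psmb9, Tap1, Psmb8, Tap2 and H2-D1 lie within the MHC, from 33919478 to 35267497. This stretch was chosen after the values of these genes were seen. It held 16 tested genes of antigen presentation, class II included. Of these, 13 were at least 2-fold higher and 0 lower, with a median log2 ratio of 1.99. The 16 include the class I and immunoproteasome genes just named, so these counts and this median reuse their values. Among the rest of the 16, log2 ratios ran from 0.92 for H2-Ob to 3.78 for H2-DMb2, and only H2-Ob was below 2-fold. Of the 69 other tested genes in between, 11 or 15.9% were at least 2-fold higher and 1 lower, with a median of 0.072, close to the 13.4% and the 0.022 of all genes tested. With the values as deposited and scaled by the median ratio, 5 of the 69 were at least 2-fold higher, beside 6.85% of all genes tested.

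**Figure D5:**
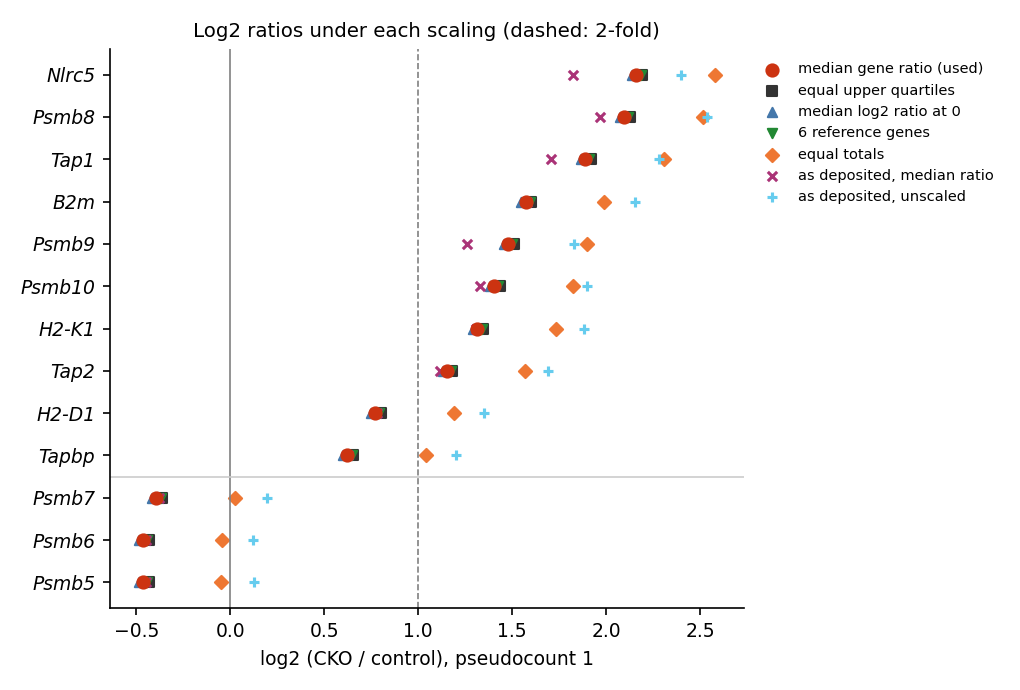
Log2 ratio of CKO to control for the 10 genes and for Psmb5, Psmb6 and Psmb7 under the scaling used and 6 alternatives, with 2-fold dashed. Tapbp runs from 0.60 to 1.20 and Nlrc5 from 1.83 to 2.58, while the standard subunits lie on both sides of 0.

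Reference genes gave the scale of differences in genes often taken as constant. Tbp was at 0.12, Hprt at -0.07, Ppia at -0.03, Rpl13a at -0.02, Actb at 0.25, Ywhaz at -0.48 and Gapdh at -0.68 on the log2 scale. With equal totals Hprt, Ppia and Rpl13a were at 0.35, 0.39 and 0.40, and with the values as deposited Ywhaz was at 0.11, so their direction depended on the scaling.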

How the data were processed

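Poly(A) RNA of whole kidney was sequenced in 2 libraries prepared with a stranded kit, 1 control and 1 CKO. Per the labels, the authors' processing notes name STAR 2.7.3a, HTSeq, DESeq2, edgeR, FastQC and Cufflinks 2.2.1 and the build mm10. The deposited values, named normalized counts, are integers without a stated unit, here handled as a score, with lowest values of 35 and 51. They were taken as reads plus a constant, an inference from these minima. The constants 34 and 50 were subtracted, CKO reads were scaled by 0.667, the median control to CKO ratio over genes, and log2((CKO + 1)/(control + 1)) was computed. Genes reaching 10 scaled reads in either library were tested, with a threshold of 2-fold. Ratio intervals were 95% Clopper-Pearson, single values Poisson, and the ratio of subunit pairs used a normal approximation on log counts. All cover counting error only, and reads are not independent molecules.

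The 10 genes and the lists were chosen with earlier results of these data known. Named were the 10 genes, Psmb5, Psmb6 and Psmb7, and the highest, lowest and most abundant gene of each list. Every regulator past 2-fold, reference genes and Zc3h12b were to be named too. H2-T23, H2-Q1, H2-Q6, H2-Q7, Ptprc, Erap1, Psme1, Rgs5, H2-Ea-ps, H2-K2, H2-Ke6, Cd3e and Cd8a were chosen after their values were seen. Some genes that this rule covers are not reported here. Coordinates came from RefSeq GRCm38.p6, matched by Entrez identifier, and lengths from GENCODE M21. Alternatives were 2 pseudocounts, 2 filters, 2 thresholds and 6 scalings. The steps were tested on simulated data. Python 3.11.15, numpy 2.4.6, pandas 2.3.3, scipy 1.17.1 and matplotlib 3.10.9 were used.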

Additional observations from a re-analysis of the deposited data

How the results depend on the processing

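No paired analysis was possible because control and CKO were 1 library each. The 10 genes kept a log2 ratio above 0 under each alternative, and 8 or more were at least 2-fold higher except at a threshold of 4-fold, which left 2 by construction. The change of each immunoproteasome subunit to its counterpart stayed within its counting interval under each pseudocount and with the values as deposited. Equal totals gave a median log2 ratio of 1.86 for the 10 genes, with 3870 genes higher and 437 lower among all tested. The values as deposited without scaling gave 1.89, with 3574 higher and 131 lower, and scaled by the median ratio 1196 and 463. A filter of 50 scaled reads, which tests fewer genes, left 617 lower. A threshold of 1.5-fold gave 3801 higher and 2423 lower, and one of 4-fold 749 and 166. For the effects of scaling the cause was not tested. Of the other values, for single genes and lists, 1363 stayed within counting error or within 1.5 times and 244 moved beyond it. Part of the 1363 was fixed in advance, since the 2 filters leave the ratio of a single gene unchanged. Counts of 0 that stayed at 0 are among the 1363 too, so the number is no measure of stability. Of genes past 2-fold, 0 changed sign. Counting error limits Nlrc5 and Psmb9 most among the 10 genes, with 89 and 112 control reads. Alternatives for the chromosome 17 stretch, for the number of genes past 2-fold in each list and for the heavy chains without H2-K1 and H2-D1 were chosen after seeing the data.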

Other observations

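Other molecules with the class I fold, and listed leukocyte receptors and their partners, had the following values. Of 6 class I-like genes, 3 were at least 2-fold higher in the CKO library and 0 lower, with a median log2 ratio of 0.83. Cd1d1, which presents lipids to NKT cells, was the highest at 1.22, from 48 and 170 reads, and at 0.84 with the constant kept and the values scaled by the median ratio. Fcgrt, the neonatal Fc receptor, which also pairs with beta-2-microglobulin, had the most reads, 3658 and 5341, and was at -0.04, or 0.38 with equal totals. Cd1d2 had 11 and 16 reads and was the lowest, at -0.04, or 0.35 with equal totals.

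Of 10 listed leukocyte receptors and their partners, not all of them known to bind class I, 6 were analysed here. All 6 were at least 2-fold higher, with a median of 2.09 from sums of 119 and 847 reads. With the values as deposited and scaled by the median ratio this median was 0.82, and 2 of the 6, Lilrb4a and Pilra, were past 2-fold. Cd8a and Hcst, with 8 control reads each, passed the filter only through the CKO library, as did Ulbp1 below. Lilrb4a, an inhibitory leukocyte receptor, had the most reads, 69 and 494. Pilra was the highest at 2.92, from 11 and 135 reads, and Hcst, the adaptor DAP10 of NKG2D, was the lowest at 1.18, from 8 and 29 reads. Of 5 ligands of NKG2D 2 were analysed here: Ulbp1 had 4 and 31 reads, at 2.12 on the log2 scale with a 95% Clopper-Pearson interval from 0.87 to 4.33, or at 0.51 under the same alternative, and H60b had 23 and 56 reads, at 0.68 on the log2 scale with an interval from -0.03 to 1.47, or at 1.09 with equal totals. Among the interferon-responsive genes, Mx1 was the highest at 4.02, from 4 and 120 reads, or at 1.56 under that alternative, and Rsad2 the lowest, at 0.00, from 564 and 844 reads.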
